A study of Mus musculus with 3 samples.

Results

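Vein-side general capillary cells of the mouse lung were examined in 3 single-cell libraries of sorted endothelial cells (ECs). Of the 31947 cell barcodes past the quality limits, 4583 were members. A barcode was a member if it held at least 2 UMIs (random tags, each marking 1 captured RNA molecule) summed over Vegfc, Chrm2 and Chrm3, none of the artery-side genes Ntrk2, Adam23 and Mal, and passed the gates of a general capillary cell. Those gates asked for at least 2 UMIs of Pecam1 and Cdh5, at least 3 of Gpihbp1, Kit, Plvap and Aplnr, under 3 of the aerocyte genes Ednrb, Fibin, Tbx2, Chst1 and Apln, under 3 of the vein genes Slc6a2, Car8, Prss23 and Amigo2, and none of Esm1. Barcodes past the same gates with 0 UMIs of Vegfc, Chrm2 and Chrm3 served as the reference and numbered 8709. All of these genes were used to choose the barcodes, so their levels are descriptions and carry no test.

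The cells came from lungs of WT C57BL/6 mice that had received a tail vein injection of 100 µl. The control mice received PBS and were taken after 6 h, and the other mice received 200000 B16-F10 cells, a pigmented mouse melanoma line, and were taken after 6 h or 30 h. Lungs were digested with collagenase for 1 h at 37 °C, Pecam1+ Ptprc- cells were sorted, and per its label the 6 h library also received melanoma cells. Each group was 1 library of pooled mice, 2 per treatment per the labels. The PBS mice were all taken at 6 h, and their library is also the comparison for 30 h, where time and tumour cells cannot be told apart. With 1 library per group, library and condition cannot be told apart either, and no difference between conditions has a replicate check.

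General capillary cells line most of the alveolar capillary bed and carry Gpihbp1 and Aplnr, whereas aerocytes are the large capillary cells specialised for gas exchange. Within the general capillary population, expression is graded between the arteriolar and the venular end. Vegfc encodes a growth factor best known for lymphatic vessel growth through Flt4, Chrm2 and Chrm3 encode muscarinic acetylcholine receptors, Ptgs1 encodes cyclooxygenase-1, the first enzyme of prostaglandin synthesis, and Prkcq encodes protein kinase C theta.

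The libraries held 140601123 UMIs in the control, 132566934 at 6 h and 124085451 at 30 h. Members had a median of 8189, 8652 and 8951 UMIs per barcode in that order, against 5883, 6949 and 6732 in the reference, so members were the deeper population in each library. The control and 6 h members shared 1 barcode sequence, and members of the other pairs shared none. Over all barcodes past the quality limits the pairs of libraries shared 23 to 39. A doublet score marked 8.63% of members in the control, 8.32% at 6 h and 7.33% at 30 h, and 6.01%, 7.28% and 5.45% of the reference.

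Members made up 2052 of the 6029 control barcodes in the general capillary gate, a share of 34.0% with an exact 95% interval from 32.8 to 35.25%. At 6 h they were 1358 of 6123 or 22.2% (21.1 to 23.2%), and at 30 h they were 1173 of 3897, or 30.1% (28.7 to 31.6%). Intervals cover counting error only. Within the general capillary gate the 6 h share lay below both others, beyond the counting intervals. Of all endothelial barcodes, members were 18.27%, 12.83% and 12.64%, so 6 h was not below 30 h by that denominator. Barcodes with a Vegfc UMI alone were 18.86%, 18.1% and 19.71% of the gate, with overlapping intervals. With every barcode thinned to 4000 UMIs the shares were 23.1%, 13.2% and 19.8%, in the same order. Thinning left out 1242, 1039 and 685 shallower general capillary barcodes with no Esm1, counted before the artery-side limit.

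The low share at 6 h moved with Chrm2. After thinning, at least 1 Chrm2 UMI was found in 33.9% of general capillary barcodes in the control, 17.5% at 6 h and 24.8% at 30 h. The Vegfc shares were 14.9%, 13.1% and 16.1%, and the Chrm3 shares 4.91%, 4.46% and 5.78%. Chrm2 therefore showed the widest range of the 3 rule genes. Vein-gated barcodes gave thinned shares of 58.75%, 62.7% and 65.6% for Vegfc and 18.25%, 22.5% and 27.9% for Chrm3, above the general capillary shares. For Chrm2 they gave 29.3%, 18.85% and 21.45%. This was below the general capillary share beyond counting error in the control, and within counting error of it at 6 h and 30 h. Aerocyte barcodes, which should lack these receptors, gave thinned shares of 0.650 to 1.36% for Chrm2, 0.650 to 1.64% for Vegfc and 0.126 to 0.302% for Chrm3. The unthinned Chrm2 shares in aerocytes were 3.27%, 2.12% and 1.44%, at median depths of 9302, 9572 and 10578 UMIs. In the general capillary gate the unthinned Chrm2 share of the control was 42.3%, at a median depth of 6934 UMIs. Free RNA of empty droplets held 58.2 CPM of Chrm2 in the control, 11.5 at 6 h and 23.5 at 30 h, and its part in the shares was not tested. CPM is the UMIs of a gene per 1000000 UMIs of the summed barcodes.

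**Figure D1:**
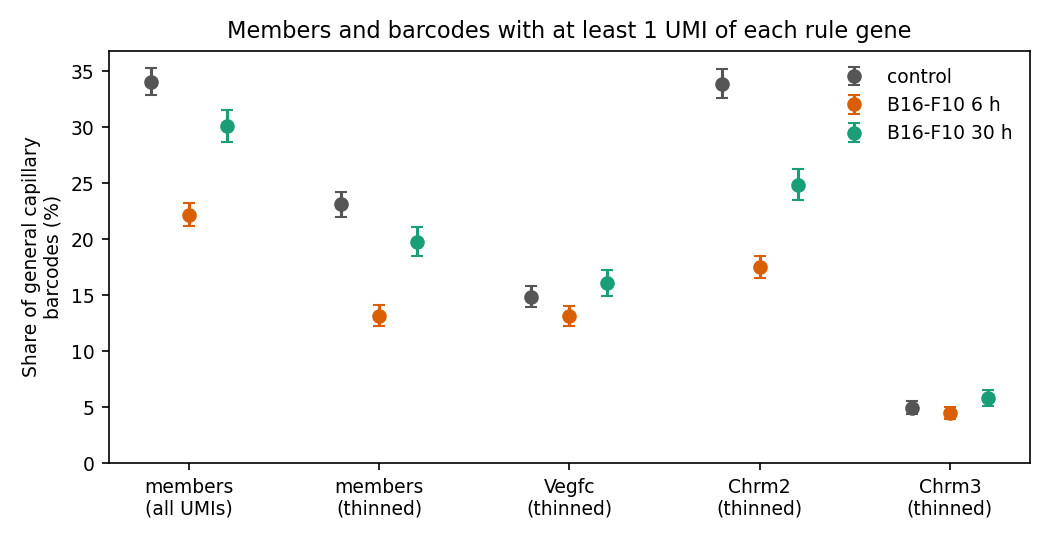
Share (%) of general capillary barcodes that were members, with all UMIs and after thinning to 4000 UMIs per barcode, and thinned shares with at least 1 UMI of Vegfc, Chrm2 or Chrm3, in the control, 6 h and 30 h libraries. Points are shares of 1 library each and bars are exact 95% intervals, with the member share lowest at 6 h (22.2% with all UMIs) and the thinned Chrm2 share at 33.9% in the control and 17.5% at 6 h.

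The members differed among themselves in which gene admitted them. In the control 84.1% held a Chrm2 UMI, 43.6% a Vegfc UMI and 15.45% a Chrm3 UMI. At 6 h the Chrm2 share of members was 68.0% and the Vegfc share 57.7%, and at 30 h these were 76.2% and 52.2%. At least 2 of the 3 genes were present in 39.1% of control members, 42.05% at 6 h and 43.3% at 30 h. Barcodes with at least 2 UMIs of the rule genes but also an artery-side UMI were left out by the rule. They numbered 452, 261 and 555 in the control, 6 h and 30 h libraries, so the exclusion differed between libraries. The threshold cut through a continuous range. Barcodes with exactly 1 UMI, just outside, numbered 1114, 1029 and 614, those with exactly 2, just inside, 669, 528 and 366, and those with 5 or more 651, 407 and 432 in the control, 6 h and 30 h libraries.

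The rule genes were also read in barcodes chosen on another rule gene, within the same gates, and Vegfc in barcodes chosen on both receptors. In barcodes with at least 2 UMIs of Chrm2 and Chrm3, Vegfc stood at 96.4 CPM in the control, 99.5 at 6 h and 154 at 30 h. In barcodes with none of either receptor it stood at 48.0, 45.4 and 57.8 CPM. The counting intervals of the paired values did not meet in any library. Conversely, Chrm3 was 42.1, 37.6 and 52.5 CPM in barcodes with a Vegfc UMI and 19.2, 18.1 and 19.1 CPM in those without. Chrm3 between barcodes with at least 2 Chrm2 UMIs and those with none was 26.0 against 22.2 CPM in the control, where the counting intervals overlapped, but 33.3 against 17.3 at 6 h and 44.8 against 19.0 at 30 h. Chrm2 stood at 188, 93.6 and 146 CPM in barcodes with a Vegfc UMI and at 134, 55.8 and 86.6 CPM in those without. In the pairs read, the rule gene was higher where the other was present, within counting error only for Chrm3 by Chrm2 in the control.

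The markers Ptgs1 and Prkcq were not used by the rule, but they had been named with results of these data known. Ptgs1 (chromosome 2, 36230426 to 36252272 on GRCm38) stood at 246 CPM in control members (exact Poisson interval 238 to 253), 172 CPM at 6 h, with an interval of 165 to 180, and 72.5 CPM at 30 h, with one of 67.5 to 77.8. In the reference it stood at 128, 77.3 and 24.45 CPM, so members were higher in each library. The log2 difference over the 3 libraries was 1.13 (SE 0.17), with an adjusted p of 0.00066 by edgeR's quasi-likelihood test with Benjamini-Hochberg adjustment over 10167 genes. Vein-gated barcodes were higher still, at 334, 264 and 181 CPM, and artery-side barcodes lower, at 41.1, 24.6 and 8.99 CPM. The order artery side, reference, members, vein was the same in every library. Aerocyte barcodes held 14.8, 13.2 and 3.06 CPM.

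Prkcq (chromosome 2, 11172108 to 11301222) stood at 53.2, 48.3 and 55.3 CPM in members of the control, 6 h and 30 h libraries. The reference held 27.8, 20.1 and 22.85 CPM, and no reference value reached a member value. The log2 difference was 1.14 (SE 0.07, edgeR quasi-likelihood adjusted p = 1.59e-06). Unlike Ptgs1, Prkcq was not separable from vein-gated barcodes, which held 50.2, 44.0 and 50.9 CPM (log2 difference 0.07, SE 0.07, edgeR adjusted p = 0.50). Artery-side barcodes held 14.7, 8.83 and 11.2 CPM. Among the 9 protein kinase C family genes tested, Prkcq was the one past the threshold in members against the reference, and none was lower. The other 8 lay between -0.08 for Prkcd and 0.18 for Prkd1 on the log2 scale. Over all genes 7.88% were higher, so the count for the family is near that share.

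**Figure D2:**
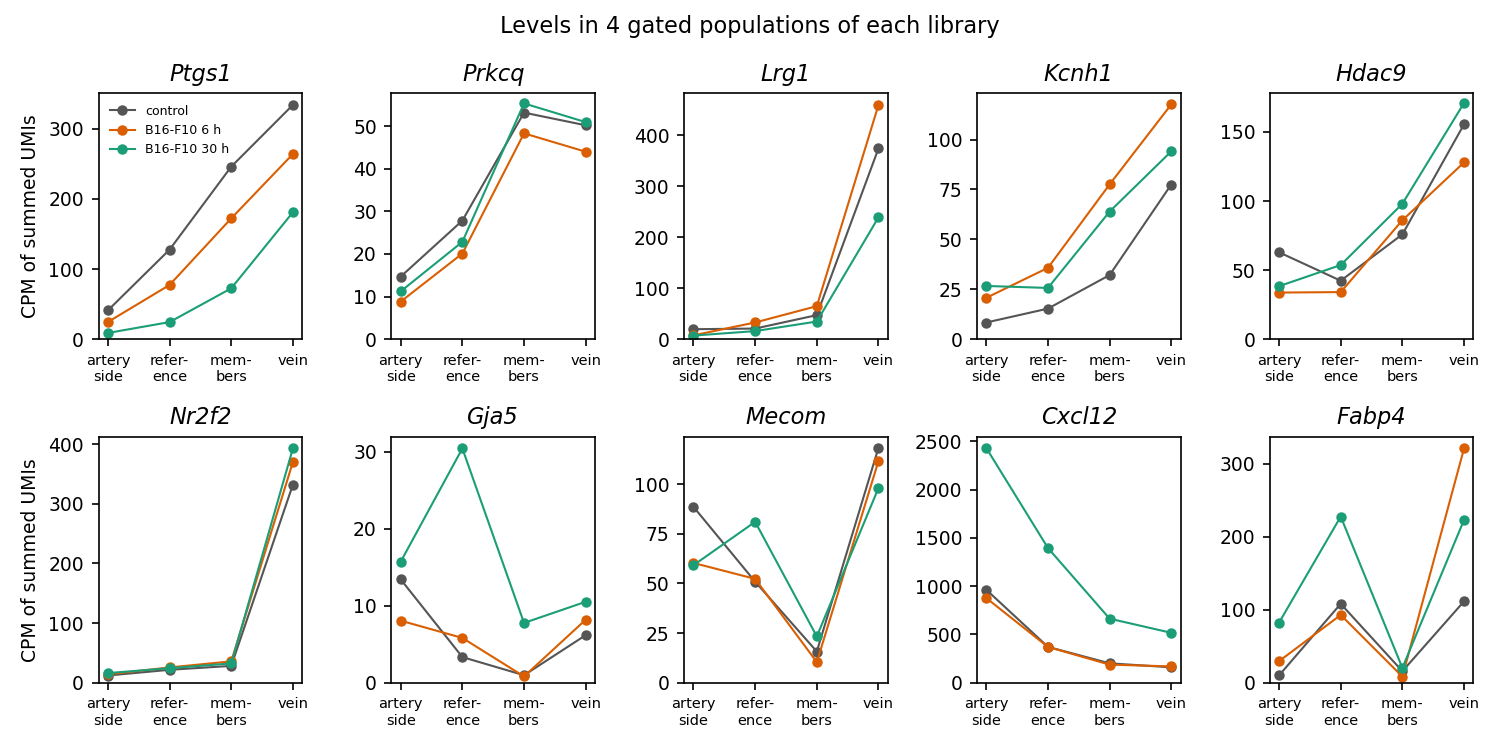
Levels (CPM of summed UMIs) of 10 genes in artery-side, reference, member and vein-gated barcodes of the control, 6 h and 30 h libraries, 1 point per library and no error bars. Ptgs1 climbs from artery side to vein in all 3 libraries (41.1, 128, 246 and 334 CPM in the control), whereas Mecom is lowest in members in all 3 (15.7 CPM in the control, beside 50.9 in the reference).

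Across the genome, 801 of 10167 genes tested were higher in members than in the reference (7.88%) and 832 were lower (8.18%), at an edgeR adjusted p under 0.05. Every one of the 801 and 823 of the 832 kept their sign in each of the 3 libraries. The test itself asked for a difference shared by these libraries, so this count is not a separate check. With reference barcodes matched to members on depth, which also left fewer of them, 863 genes were called, and with all barcodes thinned and members chosen anew 777, against 1633 in all. The match was not complete: 1894 of 2052 control members found a partner. Median depths were then 7905, 8652 and 8951 UMIs in members and 7248, 8650 and 8593 in the reference of the control, 6 h and 30 h libraries. All 1633 had the same sign in the depth-matched comparison, and 1614 of the 1622 also tested did after thinning. Another setting removed each barcode with any UMI of a set of markers of other cell types. It left 741 of 2052, 397 of 1358 and 420 of 1173 members in the control, 6 h and 30 h libraries. There 601 genes were called, with the same sign for 1592 of the 1598 genes also tested, and the part of the lost barcodes in that count was not tested. Leaving out the control, the 6 h or the 30 h library gave 623, 804 or 846. The log2 differences moved less than the counts: the median ratio to the main value was 0.961 with other cell types removed, 1.07, 0.999 and 0.939 without each library in turn, 0.885 with depth matched and 0.881 after thinning.

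Among genes of at least 20 CPM in the higher population, those with the widest differences upwards included a channel, transcriptional regulators and secreted or surface proteins. Kcnh1, a voltage-gated potassium channel, stood at 32.1, 77.5 and 63.9 CPM in members against 15.35, 35.8 and 25.7 CPM in the reference (log2 difference 1.14, SE 0.13, edgeR adjusted p = 7.36e-05). Runx1t1, a transcriptional corepressor, stood at 28.3, 27.75 and 22.3 CPM against 13.2, 11.9 and 10.6 CPM (log2 1.13, SE 0.09). Hdac9, a class IIa histone deacetylase, stood at 75.9, 86.1 and 98.1 CPM against 42.4, 34.1 and 53.7 CPM (log2 1.00, SE 0.12). In each library the member value of these 3 genes was above the reference value, which was a condition for naming them. For Kcnh1 the control members (32.1 CPM) lay below the 6 h reference (35.8 CPM). Lrg1, a secreted glycoprotein known to modulate TGF-β signalling in vessels, stood at 47.3, 64.9 and 34.8 CPM against 20.99, 32.9 and 16.02 CPM (log2 1.05, SE 0.11). Ackr3, an atypical receptor that takes up Cxcl12, was higher by 0.74 and Ramp3, a partner of the receptor for adrenomedullin, by 0.82. The tetraspanin Tspan8 was higher by 0.93, the lipopolysaccharide-binding protein gene Lbp by 0.73 and the kinase gene Lrrk1 by 0.77. Ogfrl1 (0.79), Ccser1 (0.78), Lap3 (0.71) and Specc1 (0.70) completed the 15 leading genes together with Ptgs1 and Prkcq, and their edgeR adjusted p-values were all under 0.05. Lap3 stood at 1.08 with members chosen on Vegfc alone and at 0.42 with members chosen on Chrm2 and Chrm3 alone. Against artery-side barcodes, Runx1t1 (log2 -0.15, edgeR adjusted p = 0.51), Specc1 (0.13, 0.18) and Lap3 (0.36, 0.075) did not pass the threshold. Artery-side barcodes held 37.3, 29.2 and 21.7 CPM of Runx1t1. The rest of the 15 were higher in members in that contrast.

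Of the 15 genes with the widest differences downwards by the same limit, 6 (Thsd7a, Atp13a3, Stk32a, Mecom, Bmx and Trim47) belonged to the list of artery markers. In all 3 libraries, Thsd7a, Mecom, Adgrg6, Mgst1, Tshz2, Plac8 and Trim47 were higher in vein-gated barcodes than in the reference. In the control, Adgrg6 stood there at 197 CPM against 47.1 CPM, and Mecom at 118 against 50.9 CPM. Atp13a3, Stk32a, Inhbb, Cxcl16 and Mgll were lower there in all 3 libraries. Fabp4, Bmx and Cdc42ep3 differed in direction between libraries. In the control, Fabp4 stood at 112 CPM in vein-gated barcodes against 108 CPM, and Bmx at 20.9 against 21.1 CPM. The falls are thus not particular to arterial genes. Fabp4, a fatty acid-binding protein, stood at 15.8, 8.43 and 20.35 CPM in members against 108, 92.9 and 228 CPM in the reference (log2 difference -3.17, SE 0.38, edgeR adjusted p = 0.000126), and at -1.56 with members chosen on Vegfc alone. Thsd7a stood at 4.32, 8.35 and 8.23 CPM against 47.8, 32.7 and 44.4 CPM (log2 -2.67, SE 0.39). Atp13a3, an endosomal transport ATPase, stood at 4.15, 5.40 and 14.3 CPM against 26.8, 39.7 and 54.5 CPM (log2 -2.41, SE 0.26). None of these member values reached the lowest reference value. The transcription factor gene Mecom was lower by -1.92, the Tec-family kinase gene Bmx by -1.70, the kinase gene Stk32a by -2.19 and the adhesion receptor gene Adgrg6 by -1.73 on the log2 scale. Inhbb, the βB chain of activin and inhibin, was lower by -1.80, and by -1.11 without the 6 h library. Mgst1 (-1.44), Cdc42ep3 (-1.38), the chemokine gene Cxcl16 (-1.29), Tshz2 (-1.23), the lipase gene Mgll (-1.22), Plac8 (-1.16) and Trim47 (-1.16) made up the rest of the 15.

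Barcodes with at least 2 UMIs of Gja5, Bmx and Mecom, genes of arterial ECs, were rarer among members (3.85%, 2.80% and 4.77% in the control, 6 h and 30 h libraries) than in the reference (8.14%, 8.24% and 12.8%). With these barcodes and those holding lymphatic genes removed, a setting chosen after the data had been seen, 1815 genes were called, and Stk32a stood at -1.31, Mecom, itself used for the removal, at -1.18, Adgrg6 at -0.71, Mgst1 at -0.73, Tshz2 at -0.50 and Plac8 at -0.52, all still past the threshold. Thsd7a, Atp13a3, Mgll and Trim47 moved by less than 1.5 times.

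Artery genes were lower in members as a list. Of 33 artery markers tested against the reference, 28 were lower, 5 were not past the threshold and none was higher, with a median log2 difference of -0.99 beside 0.01 over all genes. Of all genes, 8.18% were lower. This list, like the others, was chosen with earlier results of these data known, so its count is not independent evidence. Of the 30 that reached 5 CPM on average in the member and reference sums alone, 25 were lower (median -0.78). Cxcl12, a chemokine of arterial ECs, stood at 201, 188 and 664 CPM in members against 372, 371 and 1396 CPM in the reference (log2 -0.999, SE 0.08, edgeR adjusted p = 5.76e-06). The gap-junction gene Gja5 stood at 0.979, 0.819 and 7.77 CPM against 3.335, 5.82 and 30.4 CPM. The Notch ligand Dll4 was lower by -0.62 and the Notch target Hey1 by -0.44, and the ephrin gene Efnb2 by -0.65. Sox17 (0.12) and Jag1 (0.15), both arterial, did not pass the threshold.

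Vein markers differed in both directions. Of 34 tested, 14 were higher, 5 were lower and 15 did not pass the threshold, with a median of 0.13, beside 7.88% higher and 8.18% lower over all genes. However, 10 of the 34 were tested only because vein-gated or artery-side barcodes were high. Of the 24 that reached 5 CPM on average in the member and reference sums alone, a limit chosen after the data had been seen, 12 were higher and 3 lower (median 0.24). Nr2f2, the transcription factor that sets venous identity, stood at 28.3, 35.9 and 32.4 CPM in members against 21.7, 25.7 and 24.4 CPM in the reference (log2 0.41, SE 0.06, edgeR adjusted p = 0.000371). Vein-gated barcodes held 332, 370 and 393 CPM of it, far above both. Chn2 was higher by 1.31 and Emp3 by 0.66. Vcam1, a leukocyte adhesion molecule, was lower and stood at 2.48, 5.73 and 3.98 CPM in members against 11.1, 24.8 and 15.5 CPM in the reference (log2 -2.12, SE 0.19). Tshz2 and Nrp2 (-0.79) were also lower.

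Artery markers were lower in members than in the reference, and vein markers went both ways, with more higher than lower. Of 33 artery markers, 20 were also lower in members than in vein-gated barcodes and 9 were higher (median log2 -0.85). Low artery genes against the reference therefore do not by themselves bear out the name of these cells. Contrasts with the vein-gated and artery-side barcodes say little on that name, since those were gated on vein and artery-side genes. All 34 vein markers were lower in members than in vein-gated barcodes (median log2 -3.74), where 1547 genes were higher in members (15.2%) and 1682 lower (16.5%). Of these markers, 10 averaged under 5 CPM in the member and reference sums, so they were tested only because vein-gated or artery-side barcodes were high. The same holds for 3 of the 33 artery markers. List counts in the contrasts with these 2 populations are therefore descriptions only. Vein-gated barcodes also carried lymphatic RNA, with Prox1 at 19.97, 27.9 and 34.8 CPM against 1.09, 3.85 and 0.648 CPM in members. With arterial and lymphatic barcodes removed, a setting chosen after the data had been seen, 2677 genes were called between members and vein-gated barcodes, 1305 higher and 1372 lower. Against artery-side barcodes 16 vein markers were higher and 2 lower (median 0.71) while 25 of 33 artery markers were lower (median -1.27). In that contrast 581 genes were higher in members (5.71%) and 431 lower (4.24%).

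**Figure D3:**
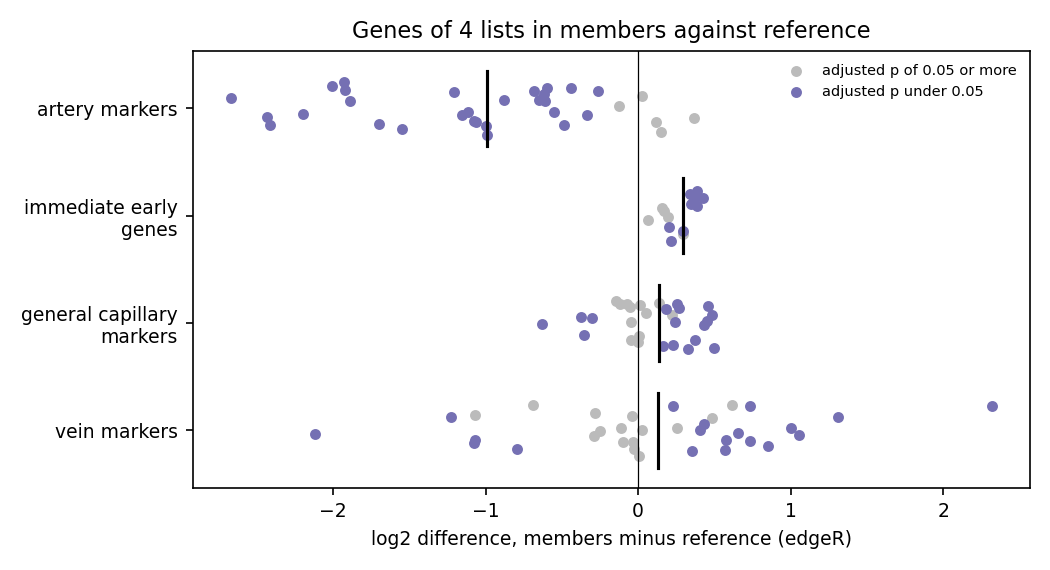
Log2 difference of members minus reference (edgeR, 3 libraries) for each tested gene of 4 lists, coloured where the adjusted p was under 0.05, with a bar at each list's median. Artery markers lie to the left of 0 (28 of 33 lower, median -0.99), and vein markers spread to both sides (14 higher, 5 lower).

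General capillary genes outside the rule differed by small amounts. Of 29 tested, 13 were higher, 4 lower and 12 not past the threshold, with a median of 0.14 beside 0.01 over all genes, of which 7.88% were higher and 8.18% lower. The largest difference upwards was that of Hmcn1 (0.50), an extracellular matrix protein, at 1050, 921 and 1064 CPM against 801, 617 and 714.5 CPM. Sox11 (0.46), the incretin receptor gene Glp1r (0.45) and Plcb1 (0.48) were also higher, and Tm4sf1 (-0.63) and the semaphorin gene Sema3g (-0.38) were lower. Against vein-gated barcodes 26 of the 29 were higher in members, beside 15.2% of all genes, in a contrast whose gates used general capillary and vein genes. Of 10 aerocyte genes outside the rule, 3 were higher, 2 lower and 5 not past the threshold.

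Genes that act with the rule genes are given beside the same shares over all genes, 7.88% higher and 8.18% lower. Of 8 VEGF ligands and receptors tested, none was higher in members and 2 were lower, the co-receptor gene Nrp2 and Vegfa (-0.30). Flt4, the receptor for Vegfc, stood at 54.1, 49.6 and 57.0 CPM in members against 57.1, 50.7 and 55.2 CPM in the reference (log2 -0.04, SE 0.07, edgeR adjusted p = 0.78). Of 14 genes of muscarinic signalling, 5 were higher and none lower: Plcb1 (0.48), Plcb4 (0.26), the G protein gene Gnaq (0.27), the calcium channel gene Itpr1 (0.24) and the G protein regulator gene Rgs5 (0.59). Plcb1, a phospholipase C, stood at 637, 600 and 1062 CPM against 493, 436 and 677 CPM. Of 9 prostanoid genes that reached 5 CPM on average in the member and reference sums alone, 4 were higher and 1 lower. Ptgs1, the prostacyclin synthase gene Ptgis (0.57), the transporter gene Slco2a1 (0.15) and Hpgd (0.12) were higher and the thromboxane receptor gene Tbxa2r (-0.49) was lower. Ptgs2, the inducible cyclooxygenase, stood at 0.115 to 0.491 CPM in members and 57.7 to 152 CPM in vein-gated barcodes, and in the reference at 0.279 to 1.63 CPM, too low to compare with members.

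Signalling and stress lists are to be read beside the 7.88% of all genes that were higher and the 8.18% that were lower. Of 14 immediate early genes 9 were higher and none lower, with a median of 0.29: Fos stood at 1638, 2622 and 1107 CPM against 1338, 2375 and 697 CPM (log2 0.34, SE 0.08), Egr1 was higher by 0.37 and Fosb by 0.43. These genes are also induced by tissue digestion, and the part of the digestion was not tested. Of 13 heat shock genes none was higher and 4 were lower, among them Hspb1 (-0.49) and Hspe1 (-0.34). Of 19 interferon genes 2 were higher (Stat2 0.26 and Iigp1 0.25) and none lower, whereas 11 of them were higher in members than in artery-side barcodes, beside 5.71% of all genes in that contrast. Counting genes that reached 5 CPM in the member and reference sums alone, 2 of 14 genes of NF-kB and cytokine response were higher and 3 lower, and 1 of 10 leukocyte adhesion genes was higher and 2 lower. For the interferon, glucocorticoid and Notch lists the counts are near those shares. Of 9 NRF2 genes 4 were lower and none higher, and of 14 glucocorticoid response genes 1 was higher and 1 lower. Of 8 lipid uptake genes that reached 5 CPM in those sums, 1 was higher (Cd36, 0.20) and 2 lower (Fabp4 and Fabp5). Of 13 Notch genes Lfng (0.21) and Hes1 (0.20) were higher and Dll4 and Hey1 lower. Of 8 coagulation genes that reached 5 CPM in the member and reference sums alone, 2 were higher and 2 lower. The thrombomodulin gene Thbd (0.45) and Entpd1 (0.42) were higher, and the plasminogen activator gene Plat (-1.08) was lower.

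RNA of other cell types moved with the contrast. All 5 platelet markers tested were lower in members (median log2 -0.69). This count and those below stand beside 8.18% of all genes lower. The 7 platelet genes summed to 158, 153 and 123 CPM in members and 226, 226 and 228.5 CPM in the reference. Barcodes with at least 2 UMIs of Ppbp, Pf4 and Itga2b were rarer among members, the deeper population, only at 30 h. They were 10.3%, 12.4% and 11.2% of members and 9.01%, 11.6% and 12.8% of the reference. Both pericyte markers tested, 2 of 3 smooth muscle markers and 1 of 3 lymphatic markers that reached 5 CPM in the member and reference sums alone were lower, and no fibroblast marker passed. Red cell genes summed to 1778, 1180 and 653 CPM in members and 6053, 2150 and 656 CPM in the reference, and none of 4 passed the threshold. No epithelial (4), immune (1), melanoma (1) or cell cycle (3) marker tested passed. No immune, pericyte or platelet marker was at 0 in members of the 3 libraries, and 4 of 8 melanoma markers were at 0 at 30 h. With barcodes holding any UMI of a set of these markers removed, all 30 genes named above kept direction and call. Ptgs1 stood at 1.18, Prkcq at 1.21 and Kcnh1 at 1.15, with Lrg1 at 0.71 (edgeR adjusted p = 0.0232). Free RNA of those cells in the remaining barcodes was not tested.

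Genes were also followed along the number of rule-gene UMIs. Ptgs1, Lrg1, Emp3 and Chn2 were higher and Cxcl12 and Gja5 lower at each step in all 3 libraries, and the other genes followed broke the order in at least 1 library. After thinning to 4000 UMIs, Ptgs1 stood at 143.5, 214, 234 and 285 CPM in control barcodes with 0, 1, 2 and 3 or more UMIs of Vegfc, Chrm2 and Chrm3. The corresponding values were 86.1, 146, 184.5 and 205 CPM at 6 h and 29.0, 40.1, 70.3 and 93.1 CPM at 30 h. Ptgs1 was higher at each step in every library. Lrg1 did the same, from 24.7 to 52.3 CPM in the control, 31.2 to 99.4 CPM at 6 h and 19.6 to 44.4 CPM at 30 h, as did Emp3. Cxcl12 was lower at each step, from 372.5 to 189 CPM in the control, 366 to 205 CPM at 6 h and 1391 to 635 CPM at 30 h. Prkcq stood at 20.7, 41.2, 32.4 and 64.4 CPM at 6 h and Nr2f2 at 19.5, 23.9, 18.9 and 38.0 CPM in the control, so neither kept the order. Mecom was highest at 0 UMIs in all 3 libraries but stood at 22.2, 28.4 and 40.75 CPM for 1, 2 and 3 or more UMIs at 30 h, and at 13.2 and 14.7 CPM for 2 and for 3 or more at 6 h, so its order was steady only in the control. Counting intervals of neighbouring steps overlapped for several of these values. The bins held between 352 and 3921 barcodes.

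**Figure D4:**
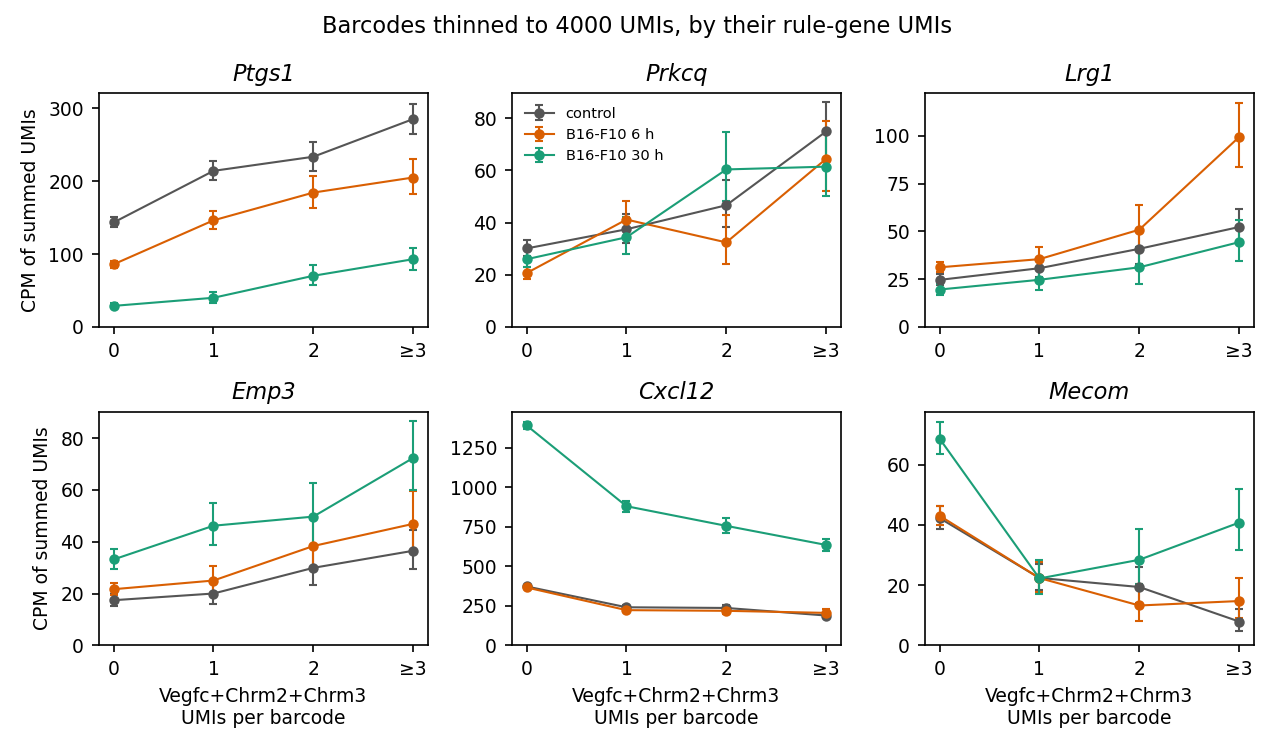
Levels (CPM of summed UMIs) of 6 genes in general capillary barcodes thinned to 4000 UMIs, by their number of Vegfc, Chrm2 and Chrm3 UMIs, in the control, 6 h and 30 h libraries, with exact 95% Poisson intervals as bars. Ptgs1 climbs with each step (143.5 to 285 CPM in the control) and Cxcl12 declines (372.5 to 189 CPM in the control).

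At 6 h after injection few genes of the members passed 2-fold against control members. Of the 6778 genes that averaged 20 CPM or more over the 3 member sums, 11 were at least 2-fold higher (0.162%) and 8 at least 2-fold lower (0.118%) on the log2(CPM + 5) scale, which understates the change of low genes. In the reference 40 were higher and 11 lower among the same genes. Members and reference of a time came from 1 library, so these are not separate experiments. Chaperone genes led the increases: Hspa1b stood at 12.7 CPM in control members and 99.6 CPM at 6 h (log2 2.56, 2.58 in the reference), and Hsph1 at 10.6 and 53.4 CPM (log2 1.904). Hspa1a (log2 2.14) is a near-identical copy of Hspa1b, so the split of reads between them is uncertain. Atf3, a stress-induced transcription factor, stood at 193 and 602 CPM (log2 1.62, 1.96 in the reference). Kcnh1 (1.15), Tmem252 (1.05) and the repressor gene Bcl6 (1.03) were also past 2-fold. Scgb1a1, a club cell secretory protein, stood at 277.5 and 650 CPM (log2 1.21), with 7299 of the 7938 UMIs at 6 h in 1 barcode.

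Among the genes lower at 6 h, Tnik, a kinase of the Wnt pathway, stood at 115 CPM in control members and 38.4 CPM at 6 h (log2 -1.47). Zbtb16, a zinc-finger transcription factor induced by glucocorticoids, stood at 259 and 109 CPM (log2 -1.21), and Fam107a, of the same response, at 46.8 and 17.85 CPM (log2 -1.18). Sema5a (-1.10), Atp8a1 (-1.09), Sult1a1 (-1.06) and the survival gene Bcl2l1 (-1.0001) were also at or past 2-fold lower. List counts are to be read beside the 0.162% of all genes at least 2-fold higher and the 0.118% at least 2-fold lower. As lists, 5 of 13 heat shock genes were at least 2-fold higher, with a median of 0.93 in members and 1.12 in the reference beside -0.00 over all genes of members. Of 12 immediate early genes 1 passed 2-fold, with a median of 0.50 in members and 0.62 in the reference. Of 12 glucocorticoid response genes 3 were at least 2-fold lower (median -0.70, reference -0.62). In empty droplets the log2 ratio was 3.16 for Hspa1b, 1.58 for Atf3 and -0.38 for Tnik.

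A panel of reactive capillary genes, which the study picked with these libraries in hand, is not independent evidence of a direction. Of the 6 with enough UMIs, Tmem252 was at least 2-fold higher at 6 h on the log2(CPM + 5) scale, beside 0.162% of all genes. The panel's median was 0.58 in members and 0.84 in the reference, beside -0.0009 over all genes of members. Pim3, a serine/threonine kinase, stood at 110 CPM in control members, 168 at 6 h and 96.0 at 30 h, and Bcl3 at 30.0, 62.55 and 26.1 CPM. In plain CPM Bcl3 was thus past 2-fold at 6 h, though not on the log2(CPM + 5) scale. Against the reference over the 3 libraries Pim3 (log2 0.34, SE 0.08), Adamts9 (0.37) and Scarb1 (0.16) were higher in members and Osmr (-0.36) and Inhbb lower, all at an edgeR adjusted p under 0.05. Barcodes with UMIs of Pim3, Bcl3 and Tmem252 together made up 1.14% of thinned control members, 3.81% at 6 h and 2.36% at 30 h, beside 0.714%, 4.74% and 1.00% of the reference.

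Several genes differed less from the control in members than in the reference at 6 h. This was not particular to members, as the values of vein-gated and artery-side barcodes show. They were named after their values had been seen, and with 1 library per group the difference between the 2 responses could not be tested. Members were also chosen anew in each library. They were 34.0% of the gate in the control and 22.2% at 6 h, and 84.1% and 68.0% of them held a Chrm2 UMI. The part of this change of membership in the values below was not tested. Pdgfa, a platelet-derived growth factor chain, went from 30.0 to 41.9 CPM in members and from 22.6 to 110.5 CPM in the reference. The log2 ratio of Pdgfa was 0.62 in vein-gated and 0.21 in artery-side barcodes, beside 0.42 in members and 2.07 in the reference. Hbegf, a ligand of the EGF receptor, went from 30.1 to 36.2 CPM in members and from 29.5 to 91.45 CPM in the reference. Inhbb went from 4.15 to 10.4 CPM in members and from 7.36 to 58.5 CPM in the reference. Barcodes with exactly 1 rule-gene UMI lay between, at 21.3 CPM of Inhbb at 6 h, and vein-gated barcodes went from 2.74 to 9.38 CPM and artery-side barcodes from 1.26 to 7.68 CPM. Empty droplets went from 3.42 to 24.5 CPM of Inhbb and from 35.35 to 56.2 CPM of Pdgfa, and the part of free RNA was not tested. Akap12 (230 to 282 CPM against 274 to 717.5), Odc1 (36.9 to 47.4 against 38.6 to 117), Bcl6b (31.1 to 40.7 against 33.4 to 86.2) and Cxcl16 (27.5 to 31.7 against 51.4 to 105.5) followed the same course. The contrast held at equal depth: thinned to 4000 UMIs, members held 45.6 CPM of Pdgfa and 8.503 CPM of Inhbb at 6 h, and the reference 88.4 and 42.4 CPM. No barcode held more than 3.18% of the reference UMIs of Pdgfa, 2.65% of Hbegf or 2.26% of Inhbb at 6 h. In members 1 barcode held 15 of the 127 Inhbb UMIs at 6 h (11.8%) and 1 held 11 of 72 in the control (15.3%).

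**Figure D5:**
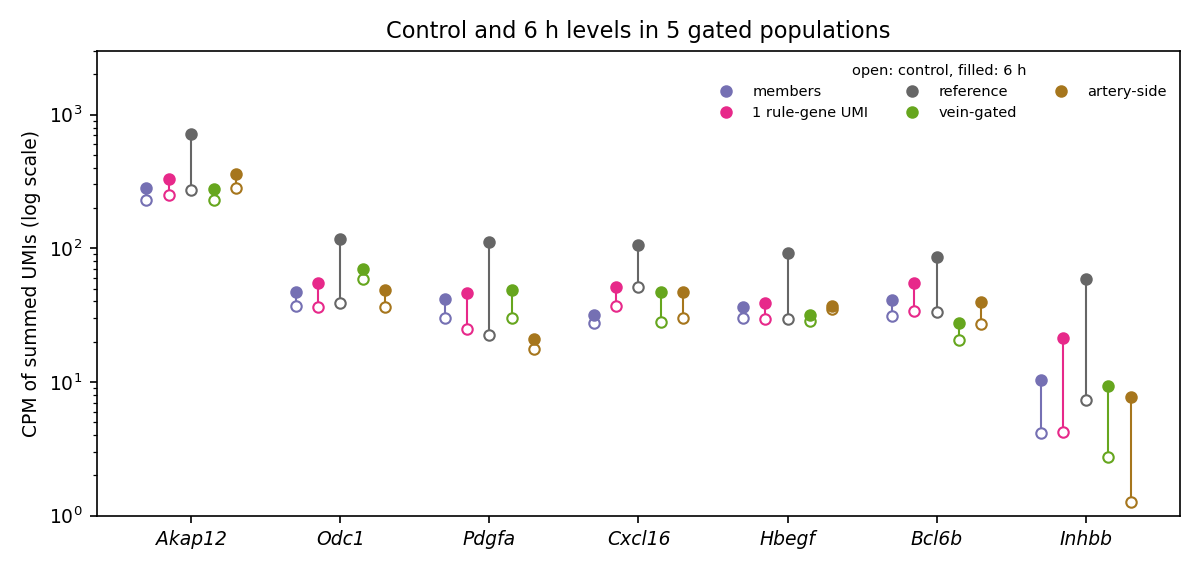
Levels (CPM of summed UMIs, log axis) of 7 genes in control (open) and 6 h (filled) barcodes of 5 gated populations, 1 library per time and no error bars. The reference shows the longest line for Pdgfa (22.6 to 110.5 CPM), whereas the line of members, chosen anew in each library, is shorter (30.0 to 41.9 CPM).

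At 30 h 38 genes of the members were at least 2-fold higher than in the control (0.561%) and 43 at least 2-fold lower (0.634%), beside 44 and 54 in the reference. Cmss1 stood at 474 CPM in control members and 2903 CPM at 30 h (log2 2.60), Cdk8, a kinase of the Mediator complex, at 186 and 1043 CPM (log2 2.46), and Lars2, the mitochondrial leucyl-tRNA synthetase, at 93.4 and 403 CPM (log2 2.05). These genes were as much higher in the reference (2.68, 2.70 and 2.15). They were also higher in empty droplets, by 2.23, 3.06 and 2.02, and the part of free RNA was not tested. Cmss1 overlaps Filip1l on the opposite strand. AY036118 (1.70) overlaps Gm42418 on the opposite strand, so its reads cannot be assigned with certainty. Cxcl12 stood at 201 and 664 CPM in members (log2 1.70, 1.89 in the reference), and was higher by 1.62 in empty droplets. Cmah (1.70) and Camk1d (1.68) were also among the largest increases.

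The genes lower at 30 h included a lipase, enzymes of redox balance and Ptgs1. Lpl, the lipoprotein lipase that Gpihbp1 carries to the capillary lumen, stood at 838.5 CPM in control members and 228.5 CPM at 30 h (log2 -1.85, -1.94 in the reference). Gclc, the rate-limiting enzyme of glutathione synthesis, stood at 126 and 33.7 CPM (log2 -1.76), and Txnrd1, a thioredoxin reductase, at 90.9 and 27.2 CPM (log2 -1.57). Of 5 NRF2 genes 3 were at least 2-fold lower, beside 0.634% of all genes. The list's median was -1.33 in members and -1.70 in the reference beside -0.07 over all genes. Ptgs1 was lower by -1.69 in members and -2.17 in the reference, and its 6 h values lay between (-0.50 and -0.69). In empty droplets Lpl was lower by -1.70, Gclc by -1.81, Txnrd1 by -1.49, Ptgs1 by -1.52, Ucp2 by -1.79 and Serpina3g by -1.70, but Sema5a by -0.44. The part of free RNA in these values was not tested. Ucp2 (-1.68), Sema5a (-1.80), Serpina3g (-1.75) and Scgb1a1 (-2.51) made up the rest of the 8 largest. Of 12 Notch genes, Nrarp (1.16) and Hes1 (1.001) were at least 2-fold higher, beside 0.561% of all genes, and the list's median was 0.17 in members and 0.28 in the reference. Unlike Ptgs1, Prkcq stood at 53.2 CPM in the control and 55.3 CPM at 30 h.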

How the data were processed

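Droplet 3′ single-cell RNA sequencing of sorted lung ECs gave 3 libraries, 1 per group, grouped by the treatment in the labels. The deposited values were UMI counts per gene and barcode, unfiltered, made by the authors with Cell Ranger 7.2.0 per the file headers on mm10. Seurat 4.4.0 is named in the submitters' notes, while the Cell Ranger release in the paper's methods is an earlier one. Whether intronic reads were counted is not given in the sources used here. The labels give 2 mice per treatment, whereas the paper's methods give 3 for its experiment with a 30 h sample, a conflict not settled here.

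Barcodes with 1000 to 5000 genes and under 20% mitochondrial UMIs were kept. Members, gates and gene lists were chosen with earlier results of these data known. UMIs of 4 populations (members, reference, artery-side barcodes with at least 2 UMIs of Ntrk2, Adam23 and Mal, vein-gated barcodes with at least 3 UMIs of the vein genes) were summed per library and scaled to CPM. The 12 sums were fitted with edgeR 4.0.16 (R 4.3.3; TMM factors, quasi-likelihood test, library as a block, 6 residual degrees of freedom), with Benjamini-Hochberg adjustment over 10167 genes of at least 5 CPM on average. Genes of the gates were left out. The replicates of this test are libraries of different treatment. Between conditions there was no test: log2 ratios of (CPM + 5) were called at 2-fold with a mean of at least 20 CPM. Poisson and Clopper-Pearson 95% intervals were exact and cover counting error only. Doublets (0.8% per 1000 barcodes, Scrublet in scanpy 1.11.5) stayed in the main setting and were removed in an alternative. Empty droplets were barcodes of 10 to 100 UMIs.

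Named genes were the 15 largest differences in each direction past the threshold, with the same sign in 3 libraries and at least 20 CPM in the higher population, and the 8 largest per condition and direction past 2-fold, leaving out gene models named Gm or Rik. Some results are not reported here. Positions came from GENCODE M21 on GRCm38, in which 32158 of 32285 gene IDs were found. Depth of members was 10809861 to 17362565 UMIs per sum. The fit code was also run on simulated counts, a check of the code only. The paper's Seurat integration and clusters were not used here. DESeq2 1.42.0 was an alternative.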

Additional observations from a re-analysis of the deposited data

Results flagged for a closer look

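Scgb1a1, a secretory protein of club cells of the airway, moved in opposite directions in members at the 2 times: its log2 ratio against control members was 1.21 at 6 h and -2.51 at 30 h. The difference was not tested, since each group was 1 library. At 6 h 1 member barcode held 7299 of the 7938 Scgb1a1 UMIs (92.0%). In the reference the ratio was -0.44 at 6 h, where 1 barcode held 5818 of 7843 UMIs, and -2.78 at 30 h. Empty droplets held 12650 CPM of Scgb1a1 in the control and 3127 CPM at 6 h (log2 -2.01).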

How the results depend on the processing

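Members against reference gave 1633 genes. Leaving out 1 library gave 623 to 846 (623 without the control, 804 without the 6 h, 846 without the 30 h library). Depth matching gave 863, thinning 777, a threshold of 1 UMI 1004 and removal of barcodes with markers of other cell types 601. Fewer samples or fewer barcodes entered several of these, and otherwise the cause was not tested. DESeq2 called 1207, and without TMM factors the split was 905 higher and 716 lower. Against artery-side barcodes 1012 fell to 502 without the control and 625 without the 6 h library (range 502 to 813). Against vein-gated barcodes 3229 became 2161 to 2471. The member shares (control, 6 h, 30 h) were 23.1%, 13.16% and 19.78% after thinning, 22.94%, 13.56% and 20.71% with at least 3 UMIs, and 18.27%, 12.83% and 12.64% of all ECs; at 30 h removing arterial and lymphatic barcodes, chosen after seeing the data, gave 31.79%. A pseudocount of 20 CPM left 10 genes of 19 at 6 h and 46 of 81 at 30 h. Scgb1a1 at 6 h reversed to -2.18 with at least 3 UMIs and to -2.40 with Vegfc alone. The 30 genes named against the reference kept direction and call in all 539 values. Genes named between conditions were less steady. At 30 h 27 values moved by more than their counting error and 85 did not, and at 6 h 20 moved, 2 reversed and 83 did neither. With members chosen on Vegfc alone, 10 of the named 30 h values moved and 6 did not. A pseudocount of 20 CPM moved 13 at each time. No paired analysis was possible between conditions because each had 1 library. Populations were paired within libraries, which were a block in every fit. Depth limits genes under 5 CPM.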
